A study of Mus musculus with 2 samples.

Results

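The KO-only peaks are the sites that were called with the KLF4 antibody in the lesion library labelled KO and had no counterpart in the library labelled WT. They were chosen by the overlap of the measured peak positions, as the peaks of the KO list on chromosomes 1 to 19 or X that overlapped no WT peak by 1 bp. This gave 718 peaks, out of 1009 KO peaks on these chromosomes and 3404 peaks in both lists. That is 71.2% of the KO peaks on these chromosomes, compared with 86.0% of the WT peaks there (1707 of 1985) without a KO partner. The choice used the position of peaks in both lists, so overlap, score and width are given as descriptions, with no test.

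Both libraries came from frozen BCA tissue of C57BL/6 mice fed a Western diet, and chromatin was recovered with a GKLF antibody, GKLF being another name of KLF4. The label for both samples is atherosclerosis lesion, holding a mixture of cells that includes SMC (smooth muscle cells), epithelial cells and macrophages. There was 1 library labelled WT and 1 labelled KO. The labels name neither the deleted gene, the cells in which it was deleted, the age nor the number of animals, and a peak list measures no expression by which tissue or genotype could be checked. Every difference below is between these 2 lists, with no replicate check. Whether cells with intact Klf4 remained in the KO tissue is not stated either.

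KLF4 is a zinc finger transcription factor that binds GC-rich and CACCC-type DNA. In smooth muscle cells it is known as a repressor of contractile genes during phenotypic switching, the process in which these cells lose their contractile state, and in other cells as a regulator of pluripotency and of epithelial differentiation. In chromatin immunoprecipitation with sequencing, a peak is a stretch where reads pile up above a local or genomic background. MACS, which named these peaks, scores a stretch from the reads found in it and the reads expected there.

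Sequence was at hand for 3 KO-only peaks, those that lay in a promoter window of RefSeq (assembly GRCm38.p6, from 250 bases before to 50 after a transcript start). They are shown because they are the KO-only peaks at a listed promoter, where a binding site of KLF4 could be looked for. The strand is that of the gene, and capitals mark matches to CACCC or CCGCCC on either strand, which did not overlap each other. The bases shown lie at chr16:64602377-64602524 (minus strand), chr17:56009107-56009200 (plus strand) and chr2:73485791-73485933 (minus strand).
Csnka2ip: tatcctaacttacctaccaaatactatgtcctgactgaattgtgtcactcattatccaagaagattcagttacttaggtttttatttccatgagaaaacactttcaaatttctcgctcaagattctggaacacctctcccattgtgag
Mpnd: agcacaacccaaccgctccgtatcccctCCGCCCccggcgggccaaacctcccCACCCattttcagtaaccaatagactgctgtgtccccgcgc
Wipf1: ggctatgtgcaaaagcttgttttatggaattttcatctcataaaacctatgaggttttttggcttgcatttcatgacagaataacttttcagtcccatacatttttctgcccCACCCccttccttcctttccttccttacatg

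The peak at Csnka2ip scored 52.92 with a width of 148 bp and lay 46 to 193 bases before the transcript start, outside any gene span. Its sequence had a GC content of 36.5% and no match to either motif. The peak at Mpnd scored 53.88 with a width of 143 bp, reached across the start, and is shown up to the base before it, with 49 bases left out. Its 94 bases had a GC content of 63.8%, with 1 match to CACCC and 1 to CCGCCC. The peak at Wipf1, which encodes a partner of the actin regulator WASP, also scored 53.88 with a width of 143 bp. It lay 38 to 180 bases before an internal start of the gene, with a GC content of 39.2% and 1 match to CACCC.

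All 3 scores lay close to the lowest score of the KO list, 50.03, and 17, 14 and 14 KO peaks respectively had the same score and the same width. At the same distance from the start, CACCC or its complement GGGTG occurred in 36.3% of all 32851 promoter windows for Csnka2ip, in 25.8% for Mpnd and in 35.9% for Wipf1. The corresponding shares for CCGCCC or GGGCGG were 22.9%, 24.0% and 24.1%. The median GC content over all promoter windows was 52.7% for Csnka2ip, 55.32% for Mpnd and 53.15% for Wipf1. The sequences of Csnka2ip and Wipf1 thus lay below this median and that of Mpnd above it. Of the KO peaks that overlapped a WT peak, 2 of 291 touched a promoter window (0.687%, 95% Wilson interval 0.189 to 2.47%), compared with 3 of 718 KO-only peaks (0.418%, 0.142 to 1.22%) and 27 of 1707 WT-only peaks (1.58%, 1.09 to 2.29%). The share of the chromosomes covered by promoter windows was not computed, so these shares have no such value beside them. The intervals here and below cover counting error over peaks only.

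The KO-only peaks had low and similar scores. Their median score was 55.09 (95% interval of the median 54.88 to 55.50), with quartiles of 53.16 and 58.37. Below a score of 60 lay 582 of the 718 (81.1%, 78.0 to 83.8%), whereas 20 of the 291 shared KO peaks did (6.87%, 4.49 to 10.4%). The shared KO peaks had a median score of 116.7 and reached 3100, and 40.2% of them scored above the highest KO-only peak, at 145.75. Scores depend on the depth and background of a library, so levels were compared only within the KO list, and values of the WT list are given beside them as a description of that list. The median width was 139 bp for KO-only peaks (138 to 140 bp) and 164 bp for shared KO peaks (156 to 178 bp). In all, KO-only peaks covered 101.2 kb of sequence.

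**Figure D1:**
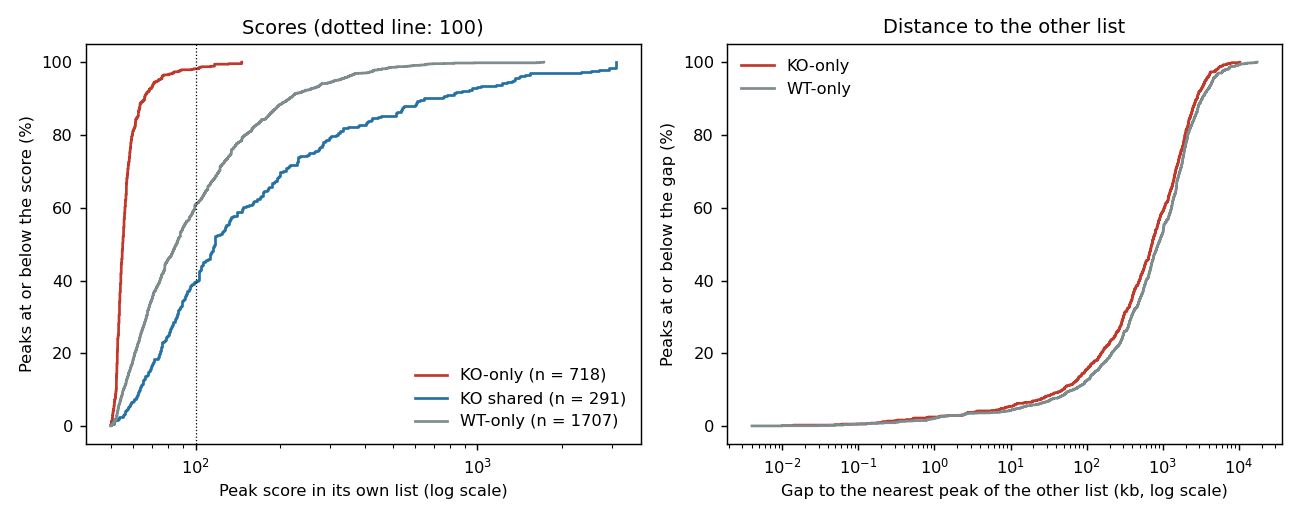
Left: cumulative share of peaks (%) against the peak's score in its own list, on a log scale, for KO-only, shared KO and WT-only peaks on chromosomes 1 to 19 and X; curves of different lists are not to be compared in level. Right: cumulative share against the gap to the nearest peak of the other list in kb, on a log scale. On the left, 81.1% of KO-only peaks lie below a score of 60, compared with 6.87% of shared KO peaks of the same list, and on the right 15.6% of KO-only peaks have a WT peak within 100 kb.

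Scores and widths of the KO-only peaks were tied to each other. Of the 718 peaks, 408 (56.8%, 53.2 to 60.4%) had a score that at least 5 KO peaks held, and these 408 shared 39 distinct scores. The largest tie was at 53.69, with 24 peaks, all KO-only. In 375 of the 718 (52.2%, 48.6 to 55.9%) both the score and the width were held by 5 or more KO peaks. This applied to 1 of the 291 shared KO peaks (0.344%, 0.0607 to 1.92%), and in the WT list to 116 of 1707 WT-only peaks (6.80%, 5.70 to 8.09%). The WT list had some such pairs above a score of 60, as at 122 bp with a score of 62.0. In the KO list, all such peaks on these chromosomes lay below 60, where most KO-only and few shared peaks lay. Of the 136 KO-only peaks at 60 or more, 0 were tied in this way. Below 60, it applied to 375 of 582 KO-only peaks (64.4%, 60.5 to 68.2%) and to 1 of 20 shared KO peaks (5.0%, 0.888 to 23.6%). These classes also differed in width, and the tied peaks were all 116 to 151 bp wide. Below 60, 531 of the 582 KO-only peaks but only 4 of the 20 shared KO peaks had such a width. With 4 shared peaks, the classes cannot be compared at equal score and width.

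The ties formed a ladder in which a wider peak had a lower score. The 375 peaks fell on 33 pairs of a score and a width, with widths from 116 to 151 bp. The 6 KO-only peaks of 116 bp all scored 59.80. Of the 36 peaks of 150 bp, 19 scored 52.54, and of the 27 peaks of 151 bp, 18 scored 52.36. Taking the commonest score of each of the 32 widths, all 31 steps from a width to the next went down, by 0.180 to 0.243 per bp and by 7.44 in all.

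Within this range of widths lay 584 KO-only peaks (81.3%), of which 370 (63.4%) had the commonest score of their width. Among the 564 at a width with a step of the ladder, 140 scored below it and 54 above it. Among the 370 peaks, the order by score was therefore the reverse of the order by width. The WT list held 18 such pairs, with at most 11 peaks on a pair, compared with 22 in the KO list. At widths with such a pair in both lists, the WT score was higher, by 1.51 at 151 bp up to 10.88 at 144 bp. At 136 bp the scores were 57.83 (WT) and 55.29 (KO). The WT pair at 144 bp scored 64.57, above that at 136 bp, so these WT scores did not fall at every step.

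**Figure D2:**
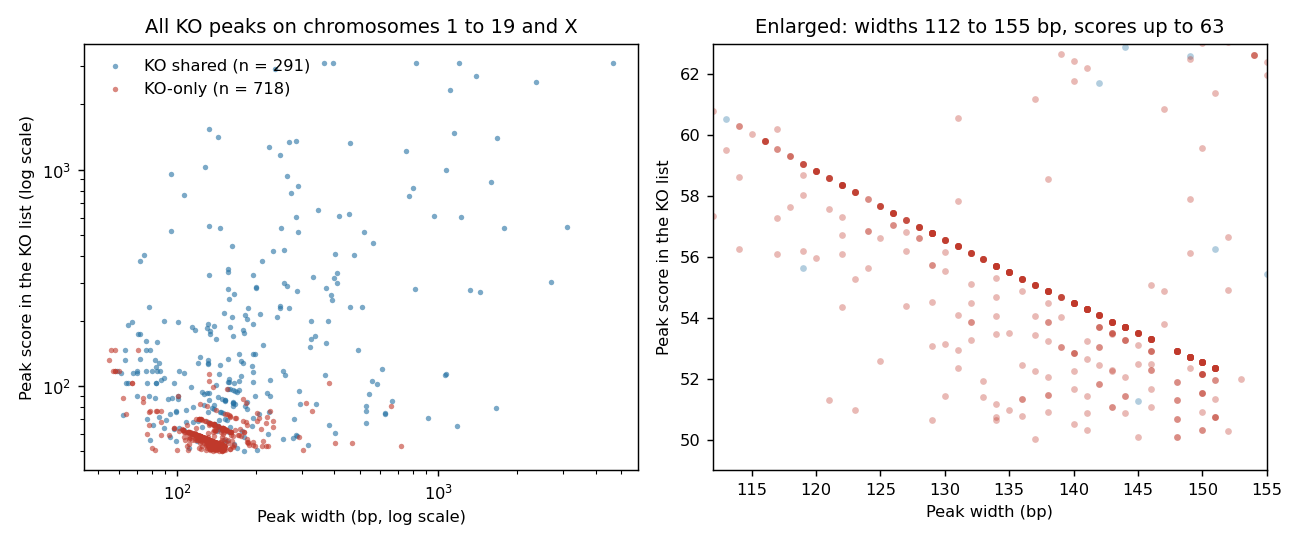
Peak score against peak width in bp for the 718 KO-only and 291 shared KO peaks on chromosomes 1 to 19 and X, on log scales (left) and enlarged on linear scales (right), where darker points are several peaks at the same place. On the right, the KO-only peaks line up on a falling line from a score of 59.80 at 116 bp to 52.36 at 151 bp. Over all scores, more of the other KO-only peaks at the widths of the ladder lay below this line (140) than above it (54). The enlarged panel cuts off higher scores, including most shared peaks of 116 to 151 bp (median score 91.24).

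Tied and untied KO-only peaks had overlapping intervals for their position in gene spans. In protein-coding spans were 164 of the 375 peaks tied in score and width (43.7%, 38.8 to 48.8%) and 138 of the other 343 (40.2%, 35.2 to 45.5%). Outside every annotated span were 48.3% (43.2 to 53.3%) and 49.6% (44.3 to 54.8%), and in long noncoding RNA spans 9.07% (6.56 to 12.4%) and 9.33% (6.69 to 12.9%). In pseudogene spans were 4 tied (1.07%, 0.416 to 2.71%) and 10 untied peaks (2.92%, 1.59 to 5.28%), and the 3 peaks in a promoter window were all tied. The intervals of the share near a WT peak did not overlap. A WT peak lay within 100 kb of 36 tied peaks (9.60%, 7.02 to 13.0%) and of 76 untied peaks (22.2%, 18.1 to 26.9%).

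A score of 100 or more was reached by 13 KO-only peaks (1.81%), compared with 176 of the 291 shared KO peaks (60.5%). The lowest of the 13 scored 102.74, and the next peak below the limit 98.65. Of the 13 peaks, 10 were only 55 to 71 bp wide, whereas 19 of all 718 KO-only peaks (2.65%) were 80 bp or less. Narrow peaks with such scores were also found among shared KO peaks, where 23 of 28 peaks of 80 bp or less scored 100 or more. In contrast to the ladder, each tied score at this level covered a range of widths in the KO list. For 102.74 this was 64 to 97 bp, though its 2 KO-only peaks had the same width.

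The highest score, 145.75, was held by 3 KO-only peaks. These lay on chromosome 1 at 41917960 to 41918030, in the long noncoding RNA gene Gm29260, on chromosome 1 at 157084867 to 157084924, 14.25 kb from Tex35, and on chromosome 5 at 119097481 to 119097536, 332.1 kb from Med13l. Their widths were 71, 58 and 56 bp. In the whole KO list, 7 peaks had this score, 3 of them KO-only and 3 shared with WT on chromosomes 1 to 19 and X. The next peak scored 131.06 and was the narrowest KO-only peak, at 55 bp. It lay on chromosome 6 at 67502095 to 67502149, 10.27 kb from Il23r, which encodes the interleukin 23 receptor.

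A score of 116.71 was held by 13 KO peaks of 57 to 102 bp, of which 4 were KO-only and 7 shared with WT on the chromosomes considered. The 4 lay in Stxbp4, which encodes a syntaxin-binding protein (chromosome 11, 90538814 to 90538871), in Immp2l, a gene of a mitochondrial inner membrane peptidase (chromosome 12, 41777934 to 41777993), in Gm5724 (chromosome 6, 141747549 to 141747606), and 32.6 kb from the transcription factor gene Sox3 (chromosome X, 60926006 to 60926062). A score of 102.74 was held by 10 KO peaks, of which 2 were KO-only and 6 shared. These 2 were both 67 bp wide. The first lay in Pde1c, a gene of a calcium-dependent cyclic nucleotide phosphodiesterase (chromosome 6, 56240530 to 56240596), and the other 57.04 kb from Gabrg1, which encodes a GABA receptor subunit (chromosome 5, 70693972 to 70694038).

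The remaining 3 of the 13 had scores of their own and were wider. The peak on chromosome 13 at 99791094 to 99791225 scored 113.12 and was 132 bp wide. It lay 49 bp from a WT peak that scored 77.22. The peak in Arih1, a ubiquitin ligase gene, scored 104.91 with a width of 132 bp (chromosome 9, 59424418 to 59424549), and the gene held a further KO-only peak with a score of 52.15. The peak in Rex2 scored 103.40 with a width of 383 bp (chromosome 4, 147030576 to 147030958). Over all 13, the gap to the nearest WT peak had a median of 859.5 kb and reached 6056 kb, and 6 lay in a protein-coding span.

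Below 100, high-scoring peaks in a gene span lay in genes of varied function. Sned1, a matrix protein gene, had a peak scoring 89.19 (chromosome 1, 93289791 to 93289891). A peak in Gm40369 scored 87.82 and a peak in the noncoding gene Gm41428 scored 86.67. Slc30a4, which encodes a zinc transporter, had a peak scoring 83.51 (chromosome 2, 122681679 to 122681989), 14 bp from a WT peak with a score of 118.13. The following peaks lay in Spon1, an extracellular matrix protein gene (77.19), in the noncoding gene Gm20754 (76.08), in Wwc1, whose product KIBRA acts in Hippo signalling (73.72), in Peak1, a pseudokinase gene whose span there also holds the antisense gene Peak1os (73.02), and in the noncoding gene Gm33294 (72.57).

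The KO-only peaks lay in gene spans about as often as the spans cover the chromosomes. Of 718 midpoints, 302 fell in a protein-coding span (42.1%, 38.5 to 45.7%), and these spans cover 39.4% of the chromosomes between the outermost genes or peaks. In long noncoding RNA spans were 66 (9.19%, 7.29 to 11.5%), with 8.45% covered, and outside every span 351 (48.9%, 45.2 to 52.5%), with 52.4% uncovered. Within 1 kb of an end of a protein-coding span lay 25 peaks (3.48%, 2.37 to 5.09%), with 2.999% of the chromosomes so close to an end. No test was run on these shares, and a peak could fall in spans of several kinds.

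The other classes of peak were placed differently. Shared KO peaks fell in protein-coding spans in 28.9% of cases (24.0 to 34.3%) and WT-only peaks in 69.2% (67.0 to 71.3%). Pseudogene spans, which hold disabled copies of genes, took 14 KO-only peaks (1.95%, 1.17 to 3.25%), 4.12% of shared KO peaks (2.37 to 7.07%) and 22.9% of WT-only peaks (21.0 to 24.9%), with 1.21% of the chromosomes covered. The 14 KO-only peaks scored 50.97 to 61.06, that in Gm29719 being the highest. Pseudogenes of vomeronasal receptors, the pheromone receptors of the Vmn2r family, were among them, with Vmn2r-ps17 (52.40) and Vmn2r-ps71 (54.08).

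**Figure D3:**
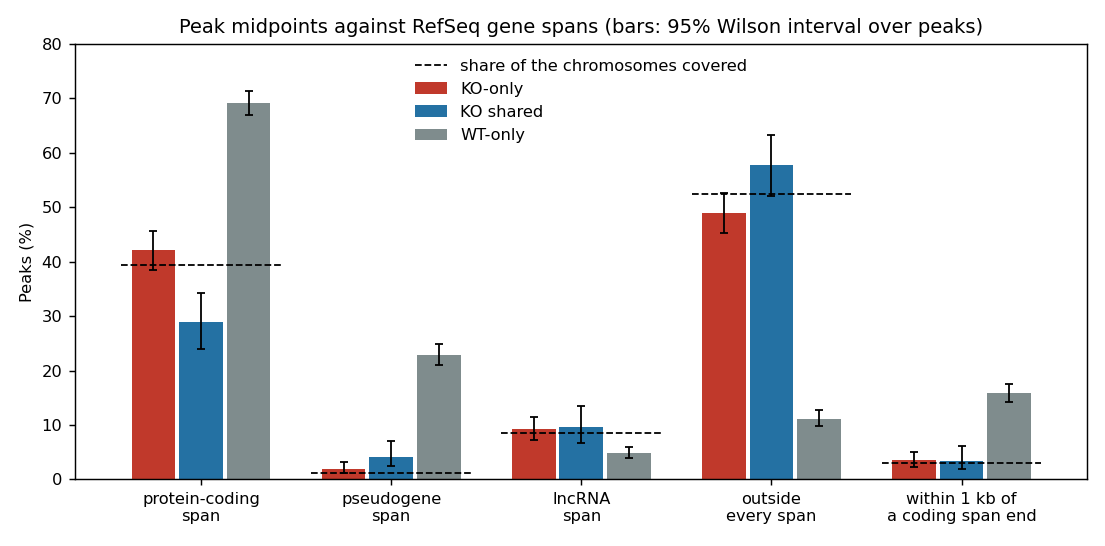
Share of peaks (%) whose midpoint lay in each kind of RefSeq gene span, outside every span, or within 1 kb of an end of a protein-coding span, for KO-only, shared KO and WT-only peaks on chromosomes 1 to 19 and X. Error bars are 95% Wilson intervals over peaks and dashed lines give the share of the chromosomes covered. The KO-only bars lie near the dashed lines, while the WT-only bar reaches 69.2% in protein-coding spans and 22.9% in pseudogene spans.

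Long genes held most of the KO-only peaks in genes. A KO-only peak lay in the span of 293 of 21631 protein-coding genes (1.35%), with a median span of 119.9 kb, compared with 17.33 kb over all protein-coding genes and 28.0 kb for the 765 genes (3.54%) holding a WT-only peak. Spans of 100 kb or more made up 56.7% of the 293 and 11.2% of all protein-coding genes. When genes were split into 5 equal groups by span length, the group with the longest spans held 226 peaks at 29.5 per 100 Mb of span. The groups below it held 43, 24 and 10 peaks at 26.2, 31.3 and 29.8 per 100 Mb. The group with the shortest spans held 6 peaks at 68.9 per 100 Mb, a value that rests on those few peaks.

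The number of KO-only peaks thus followed span length, while their density did not change much above spans of 4.32 kb. WT-only peaks differed, with 1321 per 100 Mb in the shortest spans, 635 in the next and 44.1 in the longest. Of the 293 genes, 35 also held a WT peak, which is 11.9% of these genes and 4.22% of the 829 genes with a WT peak. Over all protein-coding genes, 3.83% held a WT peak, a share that takes no account of span length.

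**Figure D4:**
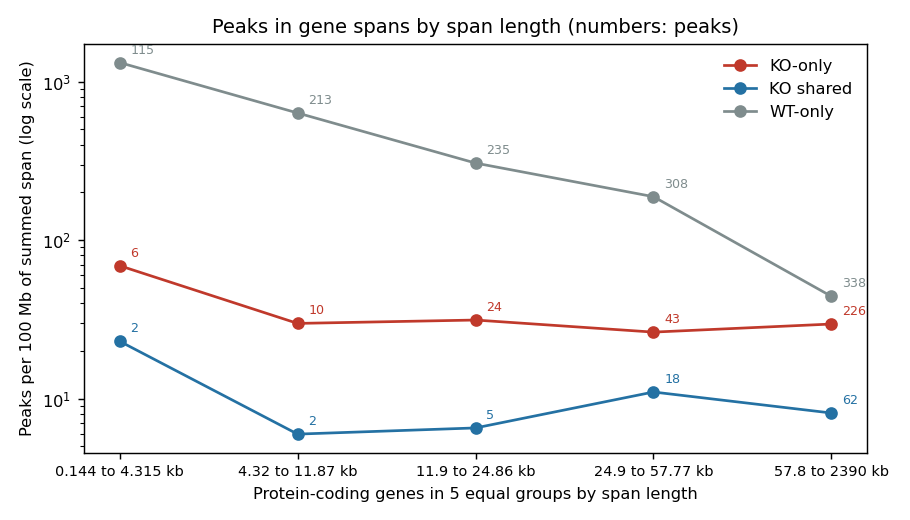
Peaks per 100 Mb of summed span, on a log scale, for protein-coding genes in 5 equal groups by span length, with the number of peaks beside each point. KO-only peaks lie between 26.2 and 31.3 per 100 Mb in all groups but the shortest, where 6 peaks give 68.9, and WT-only peaks go from 1321 in the shortest to 44.1 in the longest group.

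Single genes rarely held several KO-only peaks. Of the 293 genes, 278 held 1 peak, 14 held 2 and 1 held 3. The gene with 3 was Nrg3, which encodes a neuregulin that activates the ErbB4 receptor, with a span of 1108 kb (chromosome 14, 38365102 to 39473235). Its peaks scored 54.68, 53.69 and 55.71, and the last 2 were on the ladder of tied scores. Genes with 2 peaks included Arih1, Wwc1, Cacna1c, a calcium channel gene with a span of 610.1 kb, and Robo2, a guidance receptor gene with a span of 1555 kb.

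KO-only peaks were scattered along the chromosomes. The median gap to the nearest KO-only peak was 1197 kb (1050 to 1305 kb), and 16 of the 718 (2.23%, 1.38 to 3.59%) had another within 10 kb. By contrast, 132 of 291 shared KO peaks (45.4%, 39.7 to 51.1%) had another shared KO peak within 10 kb, although there were fewer of them. For WT-only peaks this was 773 of 1707 (45.3%, 42.9 to 47.6%). The 16 peaks formed 7 groups, of which 5 had a WT peak within 10 kb.

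The 2 groups of 3 peaks were of different kinds. On chromosome 9 at 3015060 to 3022536, 3 KO-only peaks with scores of 52.41 to 80.90 stood among 12 shared KO peaks and 9 WT peaks within 10 kb, 313 kb or more from the nearest protein-coding gene. This group includes the widest KO-only peak, 717 bp. On chromosome 13 at 119484010 to 119495329, the 3 peaks scored 53.49 to 61.27, lay in the spans of 4833420G17Rik and Tmem267, and had 1 WT peak and no shared KO peak within 10 kb.

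Most KO-only peaks were far from any WT peak. The median gap was 724.4 kb (650.9 to 805.9 kb). A WT peak lay within 1 kb of 18 peaks (2.51%) and within 10 kb of 39 (5.43%), and of these 39, 12 were in the groups above. Only 6 of the 39 (15.4%, 7.25 to 29.7%) were tied in score and width, compared with 369 of the other 679 (54.3%, 50.6 to 58.1%). The members nearest to a WT peak were 10, 14 and 49 bp away. These were a peak in the mucin gene Muc6 with a score of 50.27, the peak in Slc30a4 and the peak on chromosome 13 described above. On the other side of the limit, the KO peaks with the smallest overlap shared 2, 31 and 56 bp with a WT peak and scored 55.22, 66.29 and 85.43.

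The X chromosome held few KO-only peaks. There were 13 on X, or 7.61 per 100 Mb (95% exact Poisson interval 4.05 to 13.0), and 705 on the autosomes, or 28.9 per 100 Mb (26.8 to 31.1), a ratio of 3.79. The autosomes ranged from 20.2 per 100 Mb on chromosome 15 (21 peaks, 12.5 to 30.9) to 35.8 on chromosome 4 (56 peaks, 27.1 to 46.5), so X lay below all 19. Shared KO peaks had 5.855 per 100 Mb on X (10 peaks, 2.81 to 10.8) and 11.5 on the autosomes (10.2 to 12.9). Their interval on X overlapped that of KO-only peaks. The autosomal densities of the classes differed, so this overlap does not show whether X was equally low for both. The ratio of autosomes to X was 1.97 for shared KO peaks and 1.29 for WT-only peaks (88 on X). The difference between these ratios was not tested, and the labels do not give the sex of the animals.

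Of the 13 peaks on X, 12 lay outside protein-coding spans, the exception being a peak in Arhgap6 with a score of 54.28. A WT peak lay within 10 kb of 5, and without such peaks the densities were 4.68 per 100 Mb on X (8 peaks, 2.02 to 9.23) and 27.5 on the autosomes (25.4 to 29.6). The peaks near a WT peak were narrow, with widths of 64 to 84 bp and scores from 66.01 to 83.90.

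**Figure D5:**
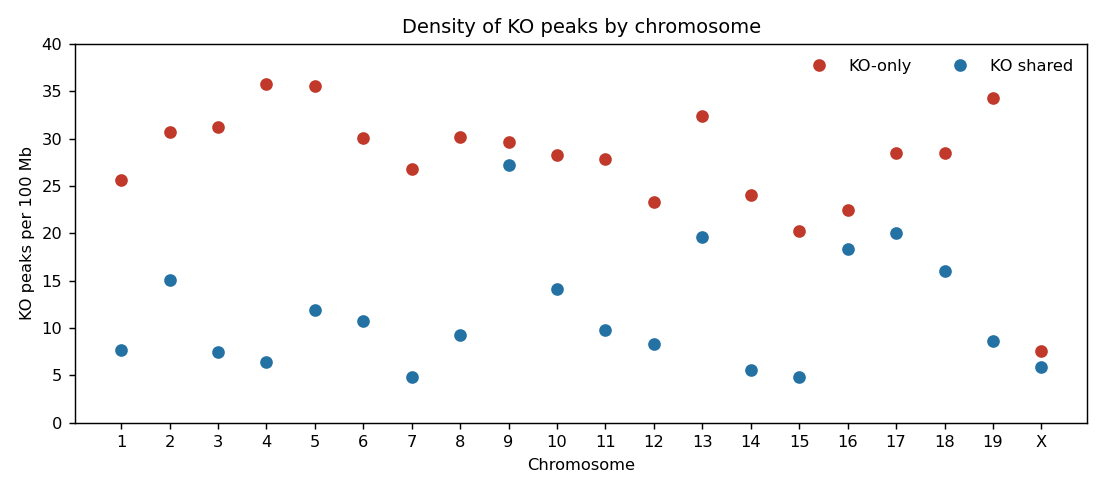
KO peaks per 100 Mb of each chromosome from 1 to 19 and X, for KO-only and shared KO peaks. KO-only peaks range from 20.2 to 35.8 per 100 Mb on the autosomes and lie at 7.61 on X, while shared KO peaks are less even among autosomes.

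Some genes in lists of cell types, matrix, lipid handling, signalling and transcription factors had a KO-only peak. Of 132 genes in 12 lists, 10 (7.58%) had a KO-only peak within 10 kb, compared with 1.93% of all 21631 protein-coding genes and with 27 of the 132 (20.5%) for WT-only peaks (5.87% of all). The lists were drawn up with earlier results on these peaks known, and most of the 10 genes were already named in them, so the share is not independent evidence. The shares over all genes also take no account of span length. In the group of genes with the longest spans, 57.8 kb or more, 4.85% had a KO-only peak in the span itself. The peaks in or near the 10 genes had scores from 51.07 to 61.06. For 9 of the 10 genes the midpoint fell inside the span.

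Of 16 smooth muscle contractile genes, 2 had a KO-only peak. These were Myocd, the gene of the coactivator myocardin (chromosome 11, 65216453 to 65216589, score 52.25), and Synpo2, an actin-binding protein gene (chromosome 3, 123129594 to 123129727, score 51.18). In WT, 6 other members had a WT-only peak, and Myh11 and Cnn1 had neither. Among 20 matrix genes, 2 had a KO-only peak, the basement membrane collagen gene Col4a1 (chromosome 8, 11217464 to 11217613, score 59.58) and the fibrillar collagen gene Col5a1 (chromosome 2, 27938775 to 27938927, score 51.99). Both of these also had a WT-only peak, as did 9 other matrix genes.

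Lipid uptake and efflux genes had 2 members of 10 with a KO-only peak, both scavenger receptor genes for modified lipoproteins. They were Olr1 (chromosome 6, 129501253 to 129501412, score 60.96) and Msr1 (chromosome 8, 39594258 to 39594403, score 51.07). Growth factor signalling had 2 of 12, namely Pdgfd, a platelet-derived growth factor gene (chromosome 9, 6239933 to 6240049, score 59.56), and Hbegf, the gene of an EGF-like growth factor, whose peak lay 1.68 kb outside the span (chromosome 18, 36503188 to 36503298, score 61.06). Among 8 epithelial markers, the keratin gene Krt19 had a peak scoring 56.27, and among 7 T cell markers found in the gene table, Cd2 had a peak scoring 56.78. The Cd2 peak was on the ladder, with 17 KO peaks of the same score and width.

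The other 6 lists had 0 members with a KO-only peak within 10 kb. These were the macrophage list (10 genes), the KLF family (17), pluripotency factors (8), inflammatory cytokines and adhesion genes (10), endothelial markers (8) and fibroblast markers (8). Klf4 itself lay 2055 kb from the nearest KO-only peak, which scored 53.49.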

How the data were processed

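ChIP-seq peak lists of 1 WT and 1 KO library were used. Build mm10, SAMtools 0.1.18 and Bowtie 1.0 are named in the submitters' processing notes. Each deposited peak carries a MACS name, and the version, control and settings of MACS are not given in the sources at hand. The authors deposited a score per peak, read here as 10 times the negative log10 of its p-value, so that a score of 50 corresponds to 1e-05. The deposited start and end positions, an unscaled measure in bp, were read as BED and are printed counting from 1. The lists hold no read counts, so depth is unknown.

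KO-only peaks, ties, gaps and positions were computed with Python 3.11.15, numpy 2.4.6, pandas 2.3.3 and scipy 1.17.1, figures were drawn with matplotlib 3.10.9, and the number of KO-only peaks equals that from bedtools 2.31.1. The steps were tested on simulated peaks. A tie is a score held by 5 or more peaks of the list. Positions use the peak midpoint and the gene spans of the NCBI RefSeq table of GRCm38.p6, whose chromosome coordinates are those of mm10. Of 133 listed gene symbols, 132 matched a protein-coding gene. Promoter sequences came from RefSeq, GRCm38.p6, and 1911 of 1911 pairs of overlapping windows on opposite strands were complementary.

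Peaks named are those scoring 100 or more, the 10 highest below in a gene span, those next to the overlap limit, groups of 3, genes with 3 or more peaks and list members. A result that the rule would name is not reported here. The members, lists and rules were chosen with earlier results of these data known. With 1 library per group, no test was made. Alternatives covered the score limit, the distance to WT peaks, the chromosomes, the definitions of ties, spans and groups, and merging.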

Additional observations from a re-analysis of the deposited data

Results flagged for a closer look

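A total of 65 KO peaks without a WT partner lay outside chromosomes 1 to 19 and X and entered no comparison above. They are listed here because they are signal outside the main measurement, and no control library was at hand. Of these, 58 were on the Y chromosome, or 63.9 per 100 Mb (95% exact Poisson interval 48.5 to 82.6), and 7 on unplaced or unlocalised sequences. The peaks on Y had a median score of 61.59 and a median width of 107 bp, 8 were tied in score and width, 4 scored 100 or more, and 38 had a WT peak within 10 kb. On unplaced sequences the median score was 58.70, and 1 peak scored 233.87.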

How the results depend on the processing

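Of 44 recomputed values, 28 moved by less than their 95% interval, or by less than 1.5 times for counts. Keeping only peaks with a score of 60 or more left 136 peaks in 50 protein-coding spans, with 15.4% tied in score, 36.8% in protein-coding spans, 0.735% in pseudogene spans, 54.4% outside every span and 5.88% within 10 kb of another. Without peaks that had a WT peak within 1 kb, the last share was 1.0%. With the Y chromosome added it was 5.03%, and 52.7% lay outside every span. The unplaced sequences did not enter these shares. The number of protein-coding spans with a KO-only peak stayed at 293 in this setting. Within 1 kb of another KO-only peak lay 0.279%, and within 100 kb 8.36%. The share with a tied score was 73.4% with scores rounded to 1 decimal and 75.3% for scores held by 2 or more peaks. It was 52.2% when score and width both had to be tied, an alternative added after seeing the data. Within 5 kb of a protein-coding span end lay 14.6%. These settings differ from the reported ones by their own construction, and the cause of the other shifts was not tested. No paired analysis was possible because there was 1 library per group. Depth is unknown, and absence from a list shows only that no peak passed the authors' threshold.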
